A study of Mus musculus with 9 samples.

Results

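Iron-sensing receptors upstream of hepcidin were followed here through 10 genes chosen by symbol. They are the bone morphogenetic protein (BMP) ligand Bmp2, the hemojuvelin gene Hfe2, the transferrin-linked sensors Hfe and Tfr2, the hemojuvelin partner Neo1 and the protease Tmprss6, and the BMP receptors Bmpr1a, Acvr1, Bmpr2 and Acvr2a. All 10 are among the 23420 genes counted in the files, and all 10 passed the filter on low counts that left 13020 genes for testing. The values come from RNA sequencing of whole liver from 9 wild-type male C57BL/6 mice, 3 separate mice on each of 3 diets. Every diet was the soy-free AIN-93G feed, with 2.5 mg iron per kg (low iron), 37.5 mg per kg (sufficient iron) or 1000 mg per kg (high iron), started at the age of 5 weeks, kept for 50 days and ended with collection of the liver at 12 weeks. Hemojuvelin knockout mice, which the protocol mentions, are not analysed here.

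Hepcidin, encoded in the mouse by Hamp, is the liver hormone that lowers iron export into blood by removing the exporter ferroportin from cell membranes. Hepatocytes raise Hamp transcription through the BMP-SMAD pathway: BMP ligands made mainly by sinusoidal endothelial cells bind pairs of type I and type II receptors with hemojuvelin as co-receptor, and the receptors phosphorylate SMAD proteins. HFE and transferrin receptor 2 link this pathway to the amount of iron-loaded transferrin in blood, matriptase-2 (Tmprss6) cleaves hemojuvelin, and neogenin (Neo1) binds it. In humans, loss of function of HFE, hemojuvelin or TFR2 causes iron overload, and loss of TMPRSS6 causes iron-refractory anaemia.

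The promoter of Hamp is shown because it is where the pathway ends, and that of Tfr2 because Tfr2 had the lowest p-value of the 10 genes in the comparison of high with low iron. Both are the 250 bases before the RefSeq start on GRCm38.p6, written 5′ to 3′ on the strand of the gene. Capitals mark GGCGCC, the core letters of the BMP-responsive element known from the hepcidin promoter, and CAGAC on either strand (GTCTG on the other), the SMAD box. The Hamp piece lies at chr7:30944030-30944279 on the minus strand and the Tfr2 piece, before the first of its RefSeq starts, at chr5:137569590-137569839 on the plus strand.
Hamp: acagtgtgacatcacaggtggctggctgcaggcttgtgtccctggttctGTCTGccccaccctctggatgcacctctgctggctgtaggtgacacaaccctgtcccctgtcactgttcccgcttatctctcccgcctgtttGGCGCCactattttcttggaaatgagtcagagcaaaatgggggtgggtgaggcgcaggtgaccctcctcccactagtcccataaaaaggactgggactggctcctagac
Tfr2: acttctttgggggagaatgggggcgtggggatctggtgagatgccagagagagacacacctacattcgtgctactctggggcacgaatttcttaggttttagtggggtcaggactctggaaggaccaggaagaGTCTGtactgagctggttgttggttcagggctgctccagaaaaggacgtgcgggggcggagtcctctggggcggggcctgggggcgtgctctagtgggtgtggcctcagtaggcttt
The Hamp piece held GGCGCC at position -109 and the SMAD box letters at -201, counted back from the start. The Tfr2 piece held the SMAD box letters at -117 and no GGCGCC. RefSeq promoters, each from 250 bases before to 50 after the start, were matched for 7 of the 10 genes. GGCGCC was found in the promoters of Neo1 at -28, Bmpr1a at -198 and Bmpr2 at -105, and in none of those matched for Hfe, Tfr2, Acvr1 and Acvr2a. The SMAD box letters were in those of Hfe, Acvr2a and every matched start of Tfr2. They were in none of those matched for Neo1, Bmpr1a, Bmpr2 and Acvr1. Of all 32851 promoters, 11.87% held GGCGCC and 49.59% held CAGAC. Another motif searched on either strand, ACGTG, the core letters of hypoxia response elements, was at -72 in the Tfr2 piece and in 19.62% of all promoters.

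The libraries held 21.99 to 33.81 M gene reads (M, mega reads), of which 9104 to 29379 per library fell on the 10 genes together. A replicate number is the one in the library's title. Rn45s, the ribosomal RNA precursor, took 43.72% of gene reads in low-iron replicate 1 and 40.54% in high-iron replicate 12, while the remaining 7 libraries had 12.49% to 23.79%. Low-iron replicate 1 and high-iron replicate 8 also stood apart in gene length. Across genes within a library, the rank correlation of gene length with the deviation of a gene from its own mean was -0.33 in low-iron replicate 1 and -0.32 in high-iron replicate 8, and between -0.08 and 0.30 elsewhere. In those same 2 libraries 2 of the 10 genes lay above their own mean, against 4 to 9 in each of the others, and the part of length in this was not tested. Hepatocyte markers, the check of the tissue label, were all present and summed to 55000 to 81800 CPM (counts per mega gene reads, on scaled library sizes). Reads from Hfe2, the gene disrupted in hemojuvelin knockout mice, were present in every library, at 66.9 to 123 CPM.

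Across the 3 diets, none of the 10 genes changed by the test used, edgeR's quasi-likelihood test with adjusted p under 0.05 over all tested genes. This held for the high-iron against the sufficient diet, for the low-iron against the sufficient diet, for the high-iron against the low-iron diet and for a trend with log10 dietary iron. The diets did call other genes. The same test called 28 genes, 0.215% of those tested, between high and sufficient iron, 66 genes (0.507%) between high and low iron and 40 genes (0.307%) for the trend. Between low and sufficient iron edgeR called 0 genes (0%), with 1458 at an unadjusted p under 0.05, 103 called by DESeq2 and 0 by limma-voom. At an unadjusted p under 0.05 the 10 genes gave 0 between high and sufficient iron, where 9.28% of tested genes passed. They gave 1 (Bmp2) between low and sufficient iron, against 11.2% of tested genes. They gave 2 (Tfr2 and Bmp2) between high and low iron, against 9.65%, and the same 2 for the trend, against 8.73%. For the other 8 genes the slope lay between -0.08 and 0.04 on the log2 scale per 10-fold more iron, with adjusted p-values of 0.836 to 0.999. Since this was whole liver, fewer cells of a type and less RNA per cell cannot be told apart in any of these values.

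**Figure D1:**
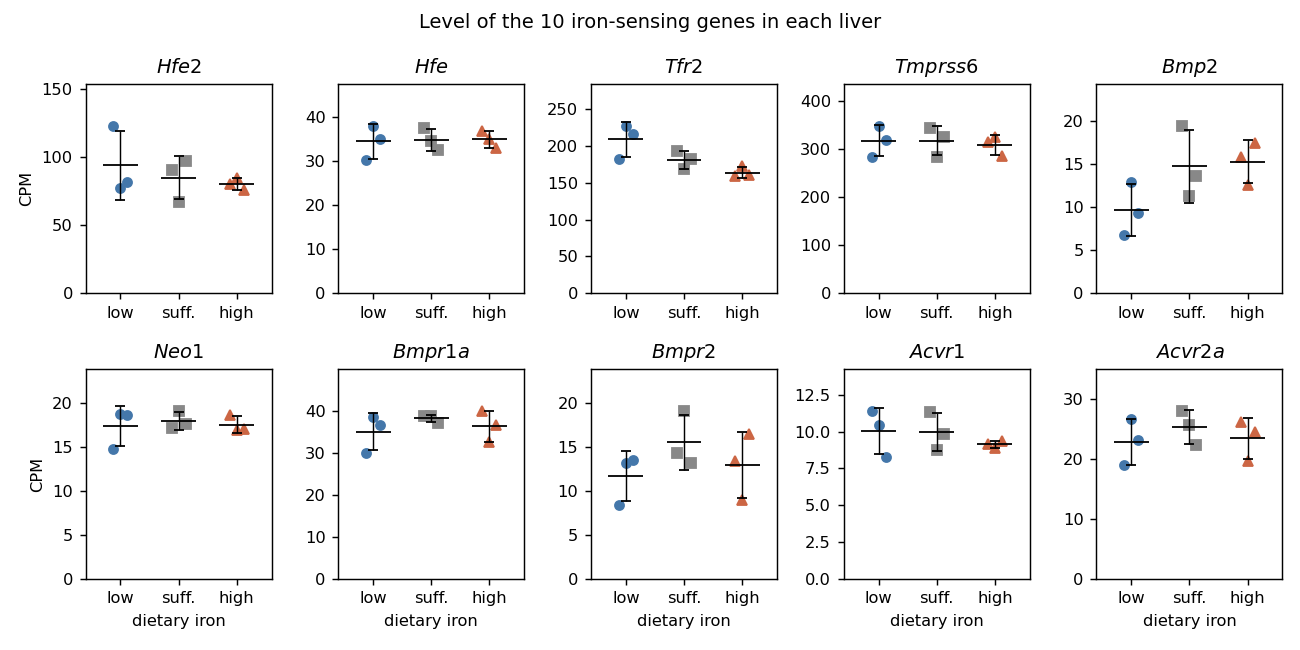
Level of each of the 10 genes in CPM (vertical axes starting at 0) for the low-iron, sufficient-iron and high-iron livers, 1 point per mouse, with the mean (long bar) and SD (error bar, n = 3). The high-iron points of Tfr2 (159 to 172 CPM) lie below all its low-iron points (183 to 228 CPM), and the points of the other 9 genes overlap between those diets.

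The size of change that the data leave room for differed among the 10 genes. Between high and sufficient iron, the 95% interval stayed within 1.5-fold in either direction for 8 of 10, between low and sufficient iron for 8 of 10, and between high and low iron for 6 of 10. Bmp2 and Bmpr2 were outside that bound in all 3 comparisons. The share of all tested genes within that bound was not counted. The tightest intervals were those of Hfe, which reached 1.19-fold between high and sufficient iron and 1.2-fold in both comparisons with low iron. The widest were those of Bmp2, which reached 2.21-fold between low and sufficient iron and 2.29-fold between high and low iron. The median absolute log2 fold change of the 10 genes was 0.07 between high and sufficient iron, 0.13 between low and sufficient iron and 0.09 between high and low iron. Over all tested genes the same median was 0.17, 0.18 and 0.16 in these comparisons, without matching for level.

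Levels per kb of exon put Tmprss6, Hfe2 and Tfr2 far above the BMP receptors. Tmprss6 was highest at 93.7 ± 7.52 CPM per kb (SD over all 9 libraries, here and in the rest of the paragraph), the 97.2nd percentile of tested genes, and its range lay above that of every other gene of the group. Hfe2 and Tfr2 followed, both at 42.6 CPM per kb, with SDs of 8.01 and 5.56, and Hfe2 was the higher in 6 of 9 libraries, so their order was not resolved. Hfe stood at 9.75 ± 0.711 CPM per kb, below Tfr2 and above Bmpr1a with no overlap on either side. The type I receptor Bmpr1a was at 5.74 ± 0.51 CPM per kb and the type II receptor Acvr2a at 4.19 ± 0.55; Bmpr1a was the higher in 9 of 9 libraries although their ranges overlapped. Bmp2 followed at 3.71 ± 1.11 CPM per kb and was below Acvr2a in 6 of 9 libraries, which leaves that pair unresolved. Neo1 at 2.02 ± 0.157 and the type I receptor Acvr1 at 2.01 ± 0.232 CPM per kb could not be ordered, Neo1 being higher in 5 of 9 libraries. Bmpr2 was lowest at 0.745 ± 0.183 CPM per kb, the 25.6th percentile, below every value of Acvr1. Of the 10 genes, 7 lay above the median tested gene. Lengths are of all exons annotated for a gene, from 2028 bases in Hfe2 to 17983 in Bmpr2, so a gene whose liver transcript is shorter than this is set too low.

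**Figure D2:**
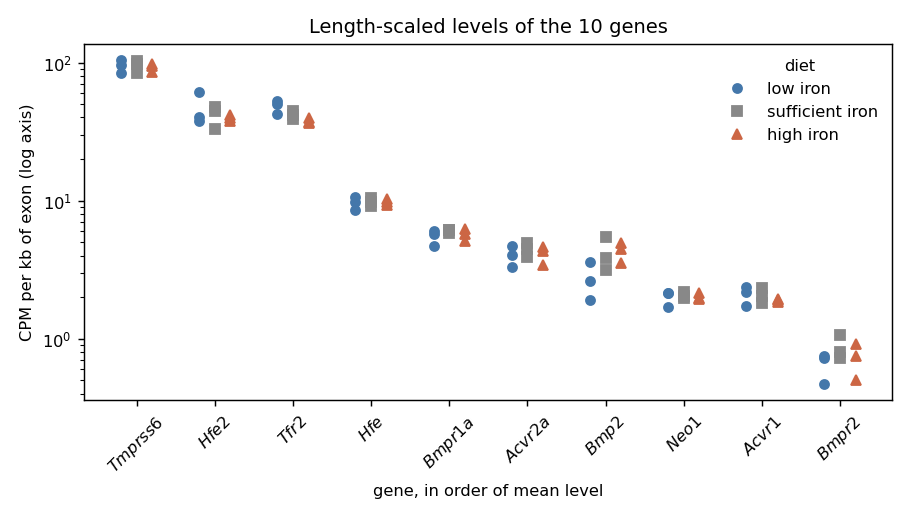
Level per kb of annotated exon (CPM per kb, log axis) of the 10 genes in order of their mean, with low-iron, sufficient-iron and high-iron livers side by side from left to right, 1 point per mouse. Levels run from 93.7 CPM per kb for Tmprss6 to 0.745 for Bmpr2 (means of 9 libraries), and the 3 diets overlap within every gene except for Tfr2 between high and low iron.

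Tfr2, the second transferrin receptor, which in liver is made by hepatocytes, was the gene of the 10 with the lowest p-value between the extreme diets. It lies at chr5:137569840-137587481 on the plus strand (GRCm38, GENCODE M21, as for the other genes). Its level was 183, 228 and 217 CPM in the low-iron livers (replicates 1, 5 and 9), 193, 168 and 182 CPM in the sufficient-iron livers (replicates 2, 6 and 10) and 159, 172 and 160 CPM in the high-iron livers (replicates 4, 8 and 12). All high-iron livers were below all low-iron livers, while the sufficient-iron livers overlapped both. Tfr2 was the only one of the 10 genes whose high-iron and low-iron groups did not overlap, which was also seen for 15.7% of tested genes. No gene of the 10 had groups without overlap between high and sufficient iron, where 17.8% of tested genes did, or between low and sufficient iron, where 16.6% did. The log2 fold change of Tfr2 between high and low iron was -0.35 ± 0.116 (SE), a fold of 0.784 (unadjusted p under 0.05, adjusted p = 0.293 by edgeR). The slope was -0.13 ± 0.0441 on the log2 scale per 10-fold more dietary iron (adjusted p = 0.317). It was -0.14 ± 0.116 between high and sufficient iron (adjusted p = 0.696) and 0.21 ± 0.116 between low and sufficient iron (adjusted p = 0.486).

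Hfe, the MHC class I-like protein that binds transferrin receptors, had the narrowest intervals of the group and the lowest coefficient of variation between mice. It lies at chr13:23702034-23710854 on the minus strand. Its level was 30.4, 38.2 and 35.1 CPM in the low-iron livers, 37.5, 34.7 and 32.5 CPM in the sufficient-iron livers and 37.0, 35.1 and 33.1 CPM in the high-iron livers, with full overlap. The log2 fold change of Hfe was 0.01 ± 0.111 between high and sufficient iron (adjusted p = 0.988), -0.01 between low and sufficient iron (adjusted p = 0.974) and 0.02 between high and low iron (adjusted p = 0.976).

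Ratios of reads within one library do not depend on library scaling, and the ratios here were chosen after the values were seen and carry no test. Reads of Tfr2 per read of Hfe were 6.03, 5.98 and 6.17 in the low-iron livers, 5.16, 4.85 and 5.61 in the sufficient-iron livers and 4.30, 4.92 and 4.85 in the high-iron livers. The 3 low-iron livers were above the other 6. Reads of Tfr2 per read of Tmprss6 were 0.645, 0.653 and 0.678 in the low-iron livers, 0.562, 0.593 and 0.560 in the sufficient-iron livers and 0.503, 0.530 and 0.563 in the high-iron livers, and again the low-iron livers lay above the other 6. How often other gene pairs separate the diets in this way was not counted. Against Hfe2 the low-iron livers were not above the others throughout. Low-iron replicate 1 had 2345 reads of Tfr2 to 1578 of Hfe2, and sufficient-iron replicate 10 had 6598 to 3504. The summed level of 10 hepatocyte markers was, like Tfr2, higher in all low-iron than in all high-iron livers, and within a diet the order varied. It was 78400, 73100 and 81800 CPM in the low-iron livers, 61600, 77000 and 57800 CPM in the sufficient-iron livers and 61200, 65200 and 55000 CPM in the high-iron livers. Low-iron replicate 5 had the lowest sum of its diet and the highest Tfr2, and sufficient-iron replicate 6 the highest sum and the lowest Tfr2. High-iron replicate 8 had the highest sum of its diet and also the highest Tfr2. All 10 markers had a negative log2 fold change between high and low iron (median -0.36, none past the test). Per 1000 reads of these markers, Tfr2 had 2.33, 3.12 and 2.65 reads in the low-iron livers, 3.14, 2.19 and 3.15 in the sufficient-iron livers and 2.6, 2.65 and 2.91 in the high-iron livers, so the 3 diets overlapped on that scale. What part the hepatocyte markers have in the Tfr2 difference was not tested.

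**Figure D3:**
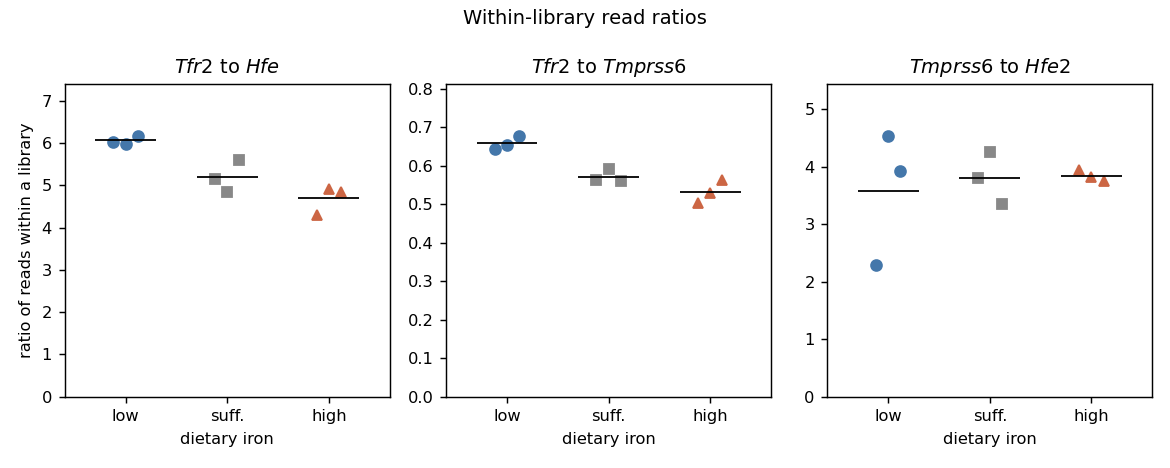
Ratios of reads within a library (vertical axes starting at 0) of Tfr2 to Hfe, Tfr2 to Tmprss6 and Tmprss6 to Hfe2 in low-iron, sufficient-iron and high-iron livers, 1 point per mouse, with the mean as a bar. The low-iron points of both Tfr2 ratios (5.98 to 6.17 to Hfe and 0.645 to 0.678 to Tmprss6) lie above all others, and the Tmprss6 to Hfe2 ratio is lowest in low-iron replicate 1 at 2.30.

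Hfe2, which encodes hemojuvelin, the membrane-anchored BMP co-receptor, lies at chr3:96525172-96529210 on the plus strand. Its level was 123, 76.9 and 81.6 CPM in the low-iron livers, 90.5, 66.9 and 96.7 CPM in the sufficient-iron livers and 80.2, 84.8 and 76.1 CPM in the high-iron livers. Low-iron replicate 1, a library in which 8 of the 10 genes were below their own mean, held the highest Hfe2 value of all 9. Hfe2 has the shortest exon length of the 10 genes, and the rank correlation with length was -0.33 in that library. Its lowest value was in sufficient-iron replicate 6, where the correlation was highest (0.30). In high-iron replicate 8, at -0.32, Hfe2 was near its mean. The part of gene length in the Hfe2 values was not tested. The log2 fold change of Hfe2 was -0.07 ± 0.19 between high and sufficient iron (adjusted p = 0.905), 0.15 ± 0.19 between low and sufficient iron (adjusted p = 0.75) and -0.22 ± 0.191 between high and low iron (adjusted p = 0.774). Without low-iron replicate 1 the last value was 0.03 and the difference between low and sufficient iron was -0.11. Without sufficient-iron replicate 6 the difference between low and sufficient iron was 0.00, so its sign depended on either library. Skeletal muscle, which also makes hemojuvelin, was barely represented, since 8 muscle markers summed to 0.267 to 0.658 CPM, and Ckm and Myh4 had no read.

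Tmprss6, the membrane protease that cleaves hemojuvelin, lies at chr15:78439667-78468634 on the minus strand. It had 284, 349 and 320 CPM in the low-iron livers, 344, 284 and 325 CPM in the sufficient-iron livers and 316, 325 and 285 CPM in the high-iron livers, and the groups overlapped throughout. Its log2 fold change was -0.04 ± 0.124 between high and sufficient iron (adjusted p = 0.923), 0.00 between low and sufficient iron (adjusted p = 0.997) and -0.04 between high and low iron (adjusted p = 0.946). Reads of Tmprss6 per read of Hfe2, the protease against its substrate, were 2.30, 4.54 and 3.92 in the low-iron livers, 3.80, 4.25 and 3.36 in the sufficient-iron livers and 3.94, 3.83 and 3.75 in the high-iron livers. The ratio overlapped between diets, with low-iron replicate 1 lowest.

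Neo1, the receptor neogenin at chr9:58874687-59036441 on the minus strand, averaged 17.4 ± 2.31 CPM in low-iron, 17.9 ± 1.01 CPM in sufficient-iron and 17.5 ± 0.967 CPM in high-iron livers (SD, n = 3 each). The means differed by less than the spread within the low-iron diet. Its log2 fold change lay between -0.04 and 0.01 in the 3 comparisons, with adjusted p-values of 0.902 to 0.993.

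Bmp2, the endothelial ligand of the group, at chr2:133552159-133562885 on the plus strand, varied most. Its level was 6.79, 12.8 and 9.34 CPM in the low-iron livers, 19.4, 11.2 and 13.6 CPM in the sufficient-iron livers and 15.8, 12.5 and 17.4 CPM in the high-iron livers. The means were 9.65 ± 3.04, 14.7 ± 4.23 and 15.2 ± 2.49 CPM in that order of diets, and the highest low-iron liver overlapped the lowest of both other groups. Bmp2 had a log2 fold change of -0.59 ± 0.252 between low and sufficient iron (unadjusted p under 0.05, adjusted p = 0.446 by edgeR). Between high and low iron it was 0.64 ± 0.254, a fold of 1.55 (unadjusted p under 0.05, adjusted p = 0.432), and between high and sufficient iron 0.05 ± 0.248 (adjusted p = 0.958). The slope per 10-fold more iron was 0.23 ± 0.106 (adjusted p = 0.569). Without low-iron replicate 1 the difference between low and sufficient iron was -0.41 (adjusted p = 0.732), and without sufficient-iron replicate 2 it was -0.34 (adjusted p = 0.561). The difference between high and low iron was 0.46 without low-iron replicate 1 (adjusted p = 0.53). All 3 then had an unadjusted p over 0.05.

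Markers of sinusoidal endothelium, the cells that make most Bmp2 in liver, were lower with it between low and sufficient iron and mixed in the other comparisons. The sum of 14 markers was 261 to 463 CPM in low-iron, 405 to 479 CPM in sufficient-iron and 352 to 495 CPM in high-iron livers, and low-iron replicate 1 was lowest in both the markers and Bmp2. Between low and sufficient iron all 14 had a negative log2 fold change (median -0.29, none past the test). Between high and low iron 9 of the 14 were positive (median 0.16), and between high and sufficient iron 4 of 14 (median -0.11). The low values on low iron were shared by some other cell types. Between low and sufficient iron all 11 tested Kupffer cell markers were negative (median -0.71), as were all 10 stellate cell markers (median -0.37). Again none passed the test. Between high and sufficient iron all 11 Kupffer markers (median -0.46) and 8 of 10 stellate markers (median -0.19) were negative too. Hepatocyte markers went the other way between low and sufficient iron, with 9 of 10 positive (median 0.27). In that comparison 6 of 8 cholangiocyte markers (median -0.50) and 6 of 9 lymphocyte markers (median -0.05) were negative. The few tested erythroid, muscle, adipocyte and pancreas markers were positive there. Of all tested genes, 49.4% were positive between low and sufficient iron and 48.1% between high and sufficient iron. Kupffer markers summed to 131 to 306 CPM in low-iron, 302 to 479 CPM in sufficient-iron and 256 to 323 CPM in high-iron livers, and stellate markers to 210 to 293, 233 to 520 and 235 to 360 CPM in the same order. Per 100 reads of the 14 sinusoidal endothelial markers Bmp2 had 2.6, 2.77 and 2.34 reads in the low-iron livers, 4.06, 2.43 and 3.34 in the sufficient-iron livers and 3.79, 3.55 and 3.52 in the high-iron livers. On this scale the high-iron livers were all above the low-iron livers, and the sufficient-iron livers overlapped both. How often other genes separate the diets on this scale was not counted. What part cell content has in the Bmp2 values was not tested.

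The 4 BMP receptors showed no change past the test. Bmpr1a, a type I receptor that hepatocytes need for hepcidin expression, lies at chr14:34410734-34503341 on the minus strand and averaged 35.0 ± 4.45 CPM in low-iron, 38.2 ± 0.904 CPM in sufficient-iron and 36.3 ± 3.71 CPM in high-iron livers. The other type I receptor, Acvr1, at chr2:58388644-58567157 on the minus strand, averaged 10 ± 1.6 CPM in low-iron, 9.96 ± 1.28 CPM in sufficient-iron and 9.13 ± 0.24 CPM in high-iron livers. For both, adjusted p-values in the 3 comparisons were 0.659 or higher, and log2 fold changes lay between -0.13 and 0.05.

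Of the type II receptors, Acvr2a, at chr2:48814109-48903269 on the plus strand, averaged 22.8 ± 3.84 CPM in low-iron, 25.2 ± 2.86 CPM in sufficient-iron and 23.4 ± 3.38 CPM in high-iron livers. Its log2 fold change lay between -0.14 and 0.03 in the 3 comparisons, with adjusted p-values of 0.709 or higher. Bmpr2, at chr1:59763400-59879014 on the plus strand, was more variable. It had 8.43, 13.1 and 13.6 CPM in the low-iron livers, 14.4, 19.1 and 13.1 CPM in the sufficient-iron livers and 13.4, 9.0 and 16.4 CPM in the high-iron livers. The log2 fold change of Bmpr2 was -0.27 ± 0.243 between high and sufficient iron (adjusted p = 0.721), -0.39 ± 0.245 between low and sufficient iron (adjusted p = 0.517) and 0.12 between high and low iron (adjusted p = 0.91). Bmpr2 has the longest exon length of the 10 genes. Its 2 lowest values were in low-iron replicate 1 and high-iron replicate 8, the libraries in which long genes were low, and its highest was in sufficient-iron replicate 6, where the rank correlation with length was highest (0.30). The part of gene length in the Bmpr2 values was not tested. Bmpr1a shares 290 exonic bases with the antisense gene Gm17110 and Acvr2a shares 446 with Orc4 on the opposite strand, so reads there cannot be assigned without the strand setting, while the other 8 genes share none in the annotation.

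The spread between mice on one diet differed among these genes. The biological coefficient of variation (the edgeR dispersion as a square root, from the fit to all 3 diets) was 0.112 for Hfe, 0.115 for Neo1, 0.118 for Bmpr1a, 0.121 for Tfr2 and 0.127 for Tmprss6, against 0.177 for all tested genes in common. Acvr1 and Acvr2a were at 0.136 and 0.144, and Hfe2 at 0.176. Bmp2 at 0.219 and Bmpr2 at 0.214 were the most variable. Among all tested genes Hfe lay at the 9.38th percentile of this value, Acvr2a at the 41st, Hfe2 at the 60.5th and Bmp2 at the 77th. The value was below that fitted for genes of the same level in 7 of the 10 genes, and in 69.9% of all tested genes. Over all 9 livers the highest value was 1.23 times the lowest for Tmprss6, 1.43 times for Tfr2 and 2.86 times for Bmp2.

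The rest of the pathway was read from 60 other genes, of which 52 were tested. Between high and low iron 5 of the 52 rose and 0 fell, between high and sufficient iron 1 rose and 0 fell, and between low and sufficient iron 0 passed the test, although 15 had an unadjusted p under 0.05. For the trend 2 rose and 1 fell. By role, the 5 were 1 of 11 other ligands (Bmp6), 1 of 6 SMAD transducers (Smad9) and 3 of 9 feedback and output genes (Hamp, Smad7 and Atoh8). None of 9 other receptors and co-receptors, 7 proteases and protease inhibitors and 10 secreted or membrane inhibitors passed between those diets. Tfrc, one of the 9, was just short of it at -2.35 ± 0.431 (adjusted p = 0.0506 by edgeR). An unadjusted p under 0.05 was seen for 5 of the 9, 1 of the 7 and 4 of the 10, against 9.65% of tested genes. The median log2 fold changes of those 3 groups were 0.16, 0.06 and 0.24, and that of the 10 upstream genes was 0.01.

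Hamp had 21.8, 0.805 and 4.62 CPM in the low-iron livers, 186, 134 and 276 CPM in the sufficient-iron livers and 625, 957 and 563 CPM in the high-iron livers, with no overlap between diets. Between high and low iron its log2 fold change was 6.40 ± 0.95 (adjusted p = 0.029 by edgeR), while the 10 genes upstream of it lay between -0.35 and 0.64. Bmp6, the other endothelial BMP ligand of hepcidin control, had 2.42, 1.98 and 1.90 CPM in the low-iron livers, 3.72, 3.52 and 5.22 CPM in the sufficient-iron livers and 5.82, 4.18 and 5.02 CPM in the high-iron livers. Its difference of 1.27 ± 0.221 between high and low iron passed the test (adjusted p = 0.0359), and that of Bmp2, 0.64 ± 0.254, did not; the difference between the ligands was not tested. There were 4.74 ± 1.85 reads of Bmp2 per read of Bmp6 in low-iron, 3.67 ± 1.38 in sufficient-iron and 3.06 ± 0.385 in high-iron livers (SD, n = 3 each).

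The feedback and output genes of the pathway, 9 in number and all tested, had positive log2 fold changes between high and low iron throughout (median 2.15), with Hamp, Smad7 and Atoh8 past the test. Smad7, an inhibitor of the pathway that its signal induces, had 2.15 (adjusted p = 0.045), and Atoh8, a transcription factor gene that responds to BMP signal in liver, 2.56 (adjusted p = 0.0246). Hamp2, the hepcidin paralog whose reads may be split with those of Hamp, had 2.89 (adjusted p = 0.12). In the same comparison 6 of the 10 upstream genes were positive and 4 negative, and the median of all tested genes was -0.01. Between low and sufficient iron all 9 were negative (median -1.34) with none past the test, the lowest p-values being those of Hamp at -4.55, Id3 at -1.42 and Smad7 at -1.38 (each adjusted p = 0.446), beside Bmp6 at -1.0.

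Smad9, a receptor-activated SMAD, rose both in high against sufficient iron (1.71 ± 0.26, adjusted p = 0.0341) and in high against low iron (2.43, adjusted p = 0.0113). The other pathway genes with the lowest p-values between high and sufficient iron were Fgl1, a secreted BMP antagonist (-1.0, adjusted p = 0.076), Inhbc, an activin subunit (-0.64, adjusted p = 0.245), and Atoh8 (1.22, adjusted p = 0.294). Tfrc, the first transferrin receptor and the binding partner of HFE, averaged 70.0 ± 35 CPM in low-iron, 26.9 ± 12.6 CPM in sufficient-iron and 13.7 ± 3.99 CPM in high-iron livers. Its slope of -0.90 per 10-fold more iron passed the test (adjusted p = 0.0484). Reads of Tfr2 per read of Tfrc were 3.36 ± 1.13 in low-iron, 8.30 ± 5.13 in sufficient-iron and 12.7 ± 3.71 in high-iron livers. The changes past the test kept their direction when each of the 9 libraries was left out in turn. Their sizes moved, and the calls did not always hold. Between high and low iron the log2 fold change of Smad9 was then 2.12 to 2.78 and passed the test in 7 of 9 fits, and that of Hamp was 5.81 to 8.04 and passed in 5 of 9. In that comparison Bmp6 was 1.14 to 1.40 and passed in 4 of 9, Atoh8 2.22 to 2.81 in 4 of 9 and Smad7 1.84 to 2.31 in 2 of 9. Between high and sufficient iron Smad9 was 1.56 to 1.78 and passed in 3 of 9, and the slope of Tfrc was -1.02 to -0.71 and passed in 2 of 9. No gene passed between high and sufficient iron without high-iron replicate 4 or without replicate 8, between high and low iron without replicate 8, or for the trend without replicate 12.

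**Figure D4:**
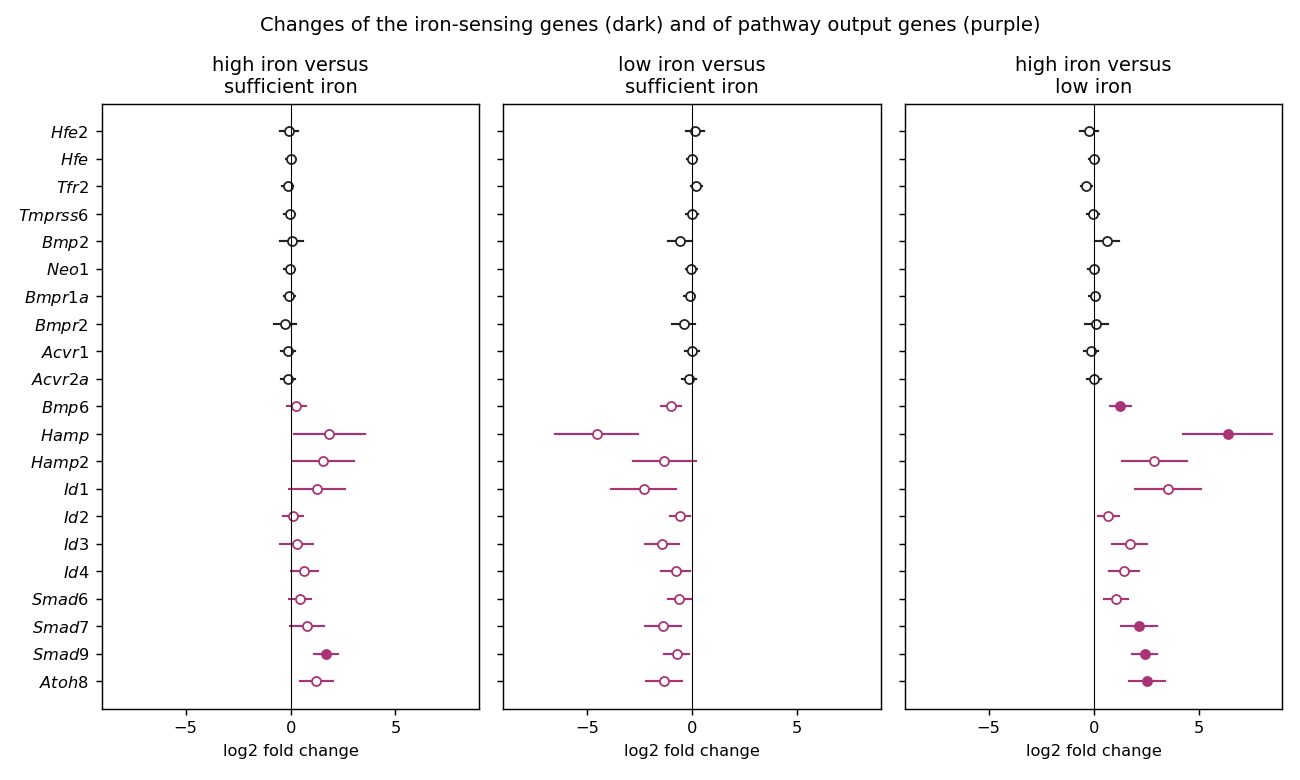
Log2 fold change (horizontal axes, bars are 95% intervals from edgeR) of the 10 upstream genes (dark) and of Bmp6, Smad9 and the 9 feedback and output genes (purple) in high against sufficient, low against sufficient and high against low iron; filled points passed the test at an adjusted p under 0.05. None of the 10 upstream genes passed and their values between high and low iron lie from -0.35 to 0.64, against 6.40 for Hamp.

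Genes with the most similar course over the 9 livers were looked up for the 3 most variable of the 10 genes, by the root mean square difference between log2 CPM values centred on each gene's mean. For Bmp2, whose own SD over libraries was 0.463, they were Zfp764 (0.172), Aqp1 (0.173) and Mapk12 (0.18), against a median of 0.481 over 11009 candidate genes. Aqp1, a water channel gene, averaged 85.6 CPM, and the other two averaged 1.24 and 1.84 CPM. For Bmpr2, with an SD of 0.372, they were Lipo1 (0.0853), Hip1 (0.0933) and Frmd4a (0.0951), against a median of 0.402. For Hfe2, with an SD of 0.251, they were Cenpb (0.0642), Tmem180 (0.069) and Mtcp1 (0.0692), against a median of 0.304. The smallest of 11009 differences is small by selection, and these values describe 9 libraries that share the effects of depth and length given above.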

How the data were processed

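RNA of 9 mouse livers was sequenced as TruSeq libraries on an Illumina HiSeq instrument, per the labels' protocols. Each library has 1 deposited table of raw counts by gene symbol. FastQC is named in the submitters' processing notes, as are both mm10 and mm9, with no role. Not given in the sources used here are aligner, counting program and strand setting. Gene positions are those of GENCODE M21 on GRCm38 and promoters are from RefSeq. The 5 category entries of each table (reads outside genes made up 13.37% to 25.94% of uniquely aligned reads, ambiguous reads 0.4766% to 0.9175%) were left out.

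The count model was that of edgeR 4.0.16 in R 4.3.3 (filterByExpr, TMM, robust quasi-likelihood fit of all 9 libraries by diet, and a second fit on log10 dietary iron). The Benjamini-Hochberg adjustment covered 13020 genes, with 0.05 as threshold. CPM are on TMM-scaled library sizes, log2 CPM with a prior count of 2, and intervals are 95% intervals of the fitted log2 fold change. The fit was tested on simulated data. DESeq2 1.42.0, limma-voom (limma 3.58.1), other filters and scalings, Rn45s and Lars2 removed, fits of only the compared diets, and left-out libraries were alternatives.

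The 10 genes, the pathway and marker lists and the tests were chosen with earlier results of these data known. Named pathway genes are those past the test, the 4 with the lowest p per comparison, and Hamp, Hamp2 and Bmp6. Each of the 3 most variable genes was given its 3 most similar genes among those averaging 1 CPM or more, without predicted gene models.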

Additional observations from a re-analysis of the deposited data

How the results depend on the processing

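None of the 10 genes passed the test in any of 18 alternatives to each of the 4 tests, 720 values in all. A value without an adjusted p was counted as not passing. The sign changed in 83 of the 720, and in 6 of these an estimate lay more than 1 SE from 0. Hfe2 between high and low iron (-0.22) was 0.0523 without the 2 libraries rich in Rn45s and -0.346 to 0.0291 when single libraries were left out, the last without low-iron replicate 1. Its slope (-0.08) was 0.0178 without the 2 libraries and -0.1235 to 0.00301 when single libraries were left out, again highest without low-iron replicate 1. Bmpr2 without the 2 libraries was -0.26 between high and low iron (0.12 with all) and -0.11 for the slope (0.04 with all). Tfr2 between high and low iron ranged from -0.43 to -0.29, with adjusted p from 0.0947 with DESeq2 to 0.635. Bmp2 ranged from 0.35 to 0.90 between high and low iron, and from -0.85 to -0.34 between low and sufficient iron, where DESeq2 gave it no adjusted p. The cause of these movements was not tested.

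Counts over all genes moved more. Between high and sufficient iron 28 genes became 45 with no filter, 211 with DESeq2 and 17 without both Rn45s-rich libraries, and 0 to 56 when single libraries were left out. Between low and sufficient iron 0 became 103 with DESeq2, 1 without both, and 0 to 1 with single libraries left out. Between high and low iron 66 became 352 with DESeq2, 31 without both, and 0 to 112. The trend count of 40 became 304 with DESeq2, 3 without both, and 0 to 96. No fit with a replicate block was run, since the diets share no replicate numbers and the labels tie no library of one diet to one of another. With 3 mice per diet, a missed threshold does not show that a gene was unchanged; the intervals give what the data allow.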
